A study of Mus musculus with 3 samples.

Results

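Mitochondrial ribosomal proteins are described here in RNA of mouse platelets. They were taken as every row whose Entrez number maps, in the RefSeq gene table, to a protein-coding mouse symbol starting with Mrpl (named for the large subunit) or Mrps (named for the small subunit). This gave 67 of the 9822 genes in each count table, 45 Mrpl and 22 Mrps genes. RefSeq lists 78 such genes, 49 Mrpl and 29 Mrps. The other 11, Mrpl23, Mrpl36, Mrpl47, Mrpl55, Mrps5, Mrps10, Mrps17, Mrps18b, Mrps22, Mrps28 and Mrps31, are not analysed here. RefSeq also lists 6 pseudogenes with such symbols, and 0 of them were in the tables. The platelets were purified from blood of BALB/c mice, all males of 20 weeks with the wild-type form of Nxf1, which exports mRNA from the nucleus. The labels name no other allele and no treatment. There was 1 group of 3 libraries, replicates 1, 2 and 3, made with the Illumina TruSeq RNA v2 chemistry, and each was a batch of its own, so library and batch cannot be told apart. Although the samples are described as independent, separate mice are not named for them. Errors and p-values therefore reflect how far these 3 samples spread, and that spread may be technical.

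Mitochondria keep a ribosome of their own, which translates only the few proteins encoded by mitochondrial DNA, all of them parts of the respiratory chain and ATP synthase. Its ribosomal RNAs come from mitochondrial DNA, whereas each of its proteins is encoded in the nucleus, made in the cytosol and imported. Many of these proteins descend from bacterial ribosomal proteins, and others are found only in mitochondria. In the structure-based names, u and b mark proteins with a bacterial counterpart and m marks those without one. Platelets have no nucleus, so their RNA from nuclear genes was passed on by the megakaryocyte, and they contain working mitochondria with DNA of their own.

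Total counts were 26974129, 25189231 and 26111636 in replicates 1, 2 and 3, and levels are given as counts scaled to a total of 1000000 (CPM) or, to compare genes, as CPM per 1000 bases of the deposited gene length (CPM per kb). A count of 0 would allow a level of up to 0.111 to 0.119 CPM (3 counts in a library). The 10 platelet and megakaryocyte markers were all present above 1 CPM in each library, with summed levels of 36386 to 38903 CPM. Markers of other blood cells were present too. The 7 of 10 red cell markers in the tables summed to 48710, 5215 and 6800 CPM in replicates 1, 2 and 3, the 6 B cell markers to 147, 136 and 231 CPM, and the 3 pan-leukocyte markers to 96.4, 108.5 and 179 CPM. An RNA at a few CPM can therefore not be assigned to platelets alone, and in such bulk samples fewer cells of a type and less RNA per cell cannot be told apart.

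Transcripts of the mitochondrial ribosome were scarce in these platelets and spread widely about a low median. The median member stood at 1.52, 1.59 and 2.11 CPM in replicates 1, 2 and 3, which corresponds to 1.47, 1.43 and 1.91 CPM per kb. All genes of the tables had median levels of 1.36, 1.35 and 1.74 CPM per kb, so on the scale per length the median member lay close to the median gene, and 35 of the 67 were above it. On the scale of reads, which favours long genes, all genes had medians of 3.559, 3.494 and 4.596 CPM, and 13 members were above the median. Together the members took 222, 228 and 268 CPM. These sums are 0.0222% (95% Clopper-Pearson interval 0.0217% to 0.0228%), 0.0228% (0.0223% to 0.0234%) and 0.0268% (0.0262% to 0.0274%) of all counts, where the intervals cover counting error only. The mean sum was 239.5 ± 24.7 CPM (SD, n = 3), and replicate 3 was the highest.

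Of the 67 members, 45 (67.2%) reached 1 CPM in all 3 libraries, against 77.7% of all genes. The shares were close in the subunits, with 30 of 45 Mrpl genes (66.7%) and 15 of 22 Mrps genes (68.2%). Detection counts reads too, and the members were short, with a median gene length of 1055 bases against 2781 bases for all genes. The tables hold only genes that passed a filter of the submitters, whose rule is not given in the sources used here. Shares are thus shares of the genes kept.

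**Figure D1:**
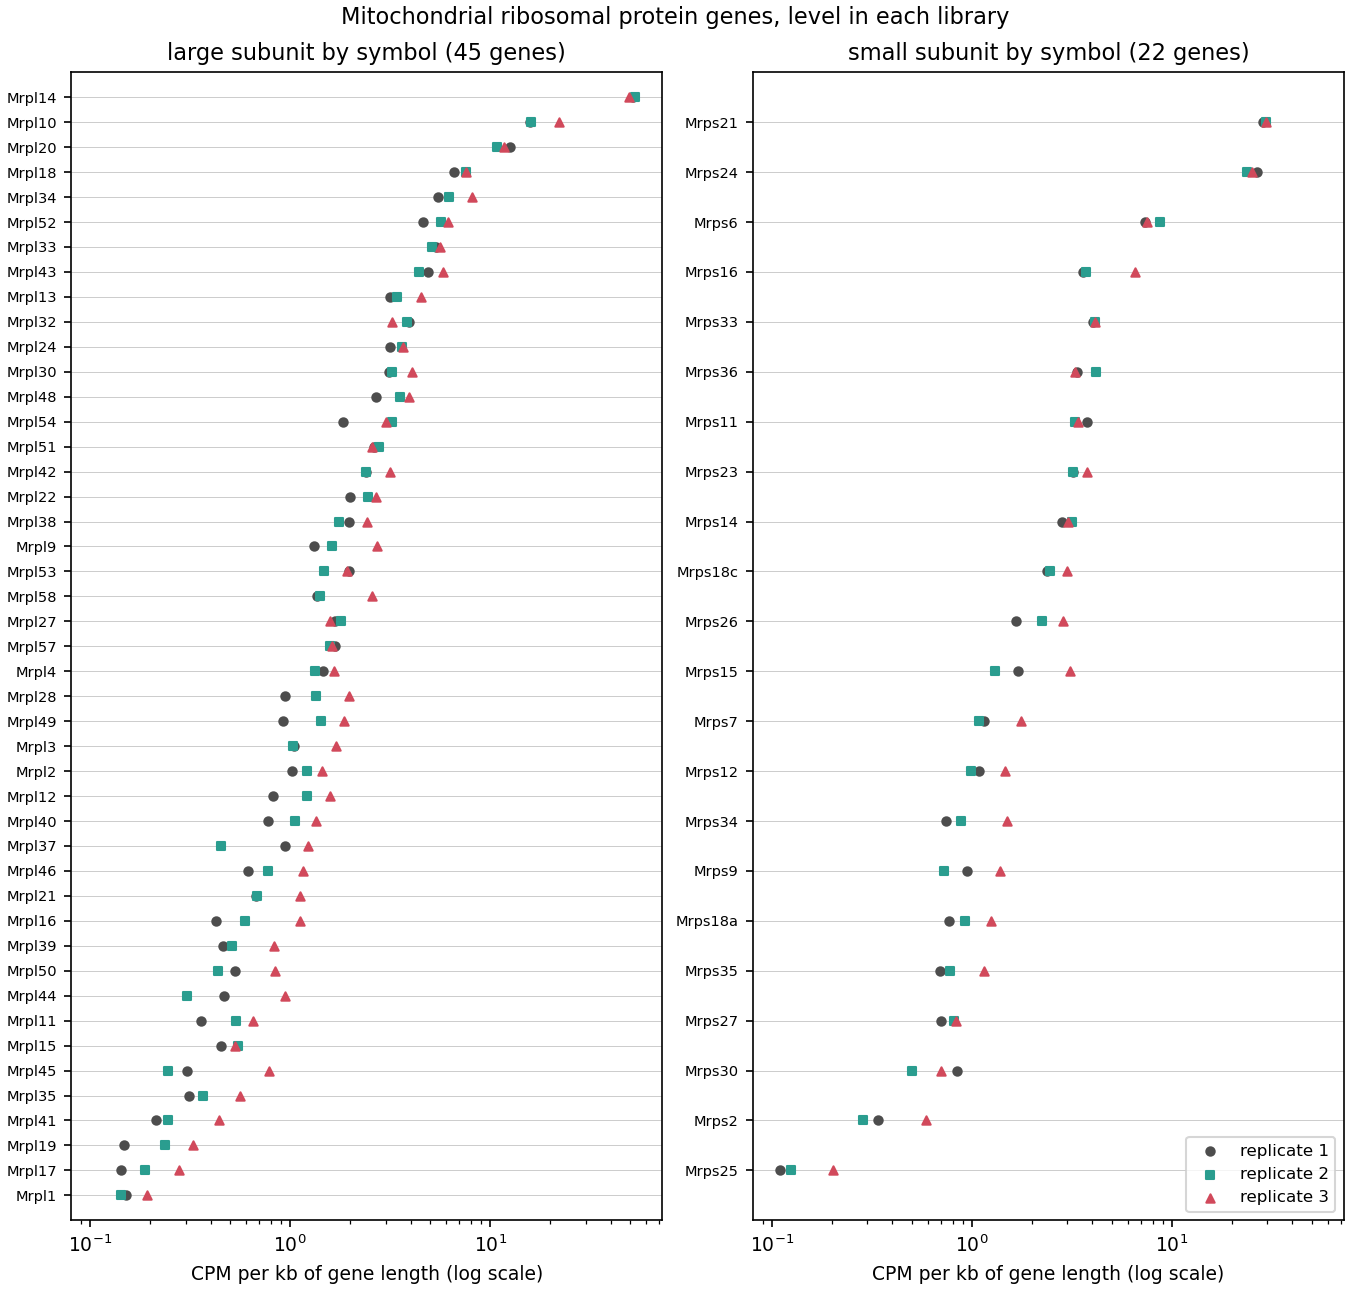
Level of each of the 67 members in CPM per kb of gene length (log scale) in replicates 1 (circles), 2 (squares) and 3 (triangles), with Mrpl genes on the left and Mrps genes on the right, ordered by mean level. Mrpl14 leads at 51.4 CPM per kb and Mrps25 is lowest at 0.145, and among the lower members the triangles of replicate 3 mostly lie to the right.

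A handful of members carried much of the signal. Mrpl14 (uL14m), whose bacterial counterpart sits on the face of the large subunit that meets the small one, was at 30.8, 31.5 and 29.4 CPM in replicates 1, 2 and 3, or 51.4 ± 1.81 CPM per kb (SD, n = 3). It ranked 725 among the 9822 genes on that scale. Mrps21 (bS21m) was at 11.57, 12.03 and 12.03 CPM, or 29.2 ± 0.653 CPM per kb. Both were close to constant across the libraries, with a highest level 1.07 times the lowest for Mrpl14 and 1.04 times for Mrps21. Mrps24 (uS3m), the counterpart of a bacterial protein that lines the path by which mRNA enters the ribosome, was at 26.7, 23.9 and 25.2 CPM, or 25.1 ± 1.37 CPM per kb. Mrpl10 (uL10m), which anchors the stalk that recruits translation factors, was at 26.5, 26.8 and 37.0 CPM, or 17.9 ± 3.54 CPM per kb, and stood higher in replicate 3 than in the others. These 4 genes supplied 43.0%, 41.3% and 38.7% of the CPM of all members in replicates 1, 2 and 3. From the highest to the lowest member the level fell 354-fold per kb.

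The next members of the large subunit were at a small part of the level of Mrpl14. Mrpl20 (bL20m), the counterpart of a bacterial protein needed early in assembly of the large subunit, was at 8.34, 7.23 and 7.81 CPM, or 11.7 ± 0.839 CPM per kb. Mrpl18 (uL18m) had 6.34, 7.23 and 7.24 CPM, or 7.23 ± 0.537 CPM per kb. Mrpl34 (bL34m), a very short protein, was at 3.52, 4.01 and 5.25 CPM, or 6.59 ± 1.38 CPM per kb. Mrpl52 (mL52), which has no bacterial counterpart, followed at 1.89, 2.34 and 2.53 CPM, or 5.47 ± 0.795 CPM per kb. Mrpl20 varied without a common direction, whereas Mrpl34 and Mrpl52 were lowest in replicate 1 and highest in replicate 3.

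Among the small-subunit genes below Mrps21 and Mrps24 the steps were smaller. Mrps6 (bS6m) was at 5.75, 6.79 and 5.82 CPM, or 7.84 ± 0.745 CPM per kb. Mrps16 (bS16m) was at 2.04, 2.10 and 3.71 CPM, or 4.63 ± 1.68 CPM per kb. Mrps33 (mS33) was at 4.26, 4.37 and 4.37 CPM, or 4.11 ± 0.0564 CPM per kb. Of these, Mrps33 was nearly the same in every library, and Mrps16 was higher in replicate 3 than in either of the others. Mrps36 carries a ribosomal symbol but is now counted as a component of the alpha-ketoglutarate dehydrogenase complex, and it was at 2.41, 2.98 and 2.34 CPM, or 3.60 ± 0.490 CPM per kb. Its range over the libraries overlapped with those of its neighbours in that order, Mrps33 and Mrps11.

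At the bottom of the order were genes with long deposited gene lengths. Mrpl1 (uL1m), a protein of the mobile stalk beside the exit site for tRNA, was at 0.630, 0.595 and 0.804 CPM, or 0.162 ± 0.0268 CPM per kb. Mrpl17 (bL17m) was at 0.964, 1.27 and 1.88 CPM, or 0.204 ± 0.0692 CPM per kb. Mrpl19 (bL19m) was at 0.741, 1.19 and 1.65 CPM, or 0.238 ± 0.0902 CPM per kb. The last of the 4 lowest Mrpl genes was Mrpl41 (mL41) at 0.519, 0.595 and 1.07 CPM, or 0.301 ± 0.124 CPM per kb. All 4 were highest in replicate 3. In the small subunit Mrps25 (mS25) was lowest, at 0.667, 0.754 and 1.23 CPM, or 0.145 ± 0.0494 CPM per kb, and Mrps2 (uS2m) came next at 0.704, 0.595 and 1.23 CPM, or 0.405 ± 0.162 CPM per kb. Mrps30 had 0.679 ± 0.171 and Mrps27 (mS27) 0.782 ± 0.0699 CPM per kb, and Mrps27 was at 1.30, 1.51 and 1.53 CPM in the 3 libraries.

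The position in this order followed gene length. The lengths ran from 407 to 6712 bases, 12 members (10 Mrpl and 2 Mrps genes) had 2000 bases or more, and the 10 lowest members per kb were all among them. Across the 67 genes, which share the libraries and are no replicates, Pearson's r of log2 gene length was -0.72 with the log2 level in CPM per kb and -0.26 with the log2 level in CPM. The deposited length enters the level per kb as its divisor. Where transcripts present in platelets are shorter than that length, the level per kb understates them, and this was not tested.

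**Figure D2:**
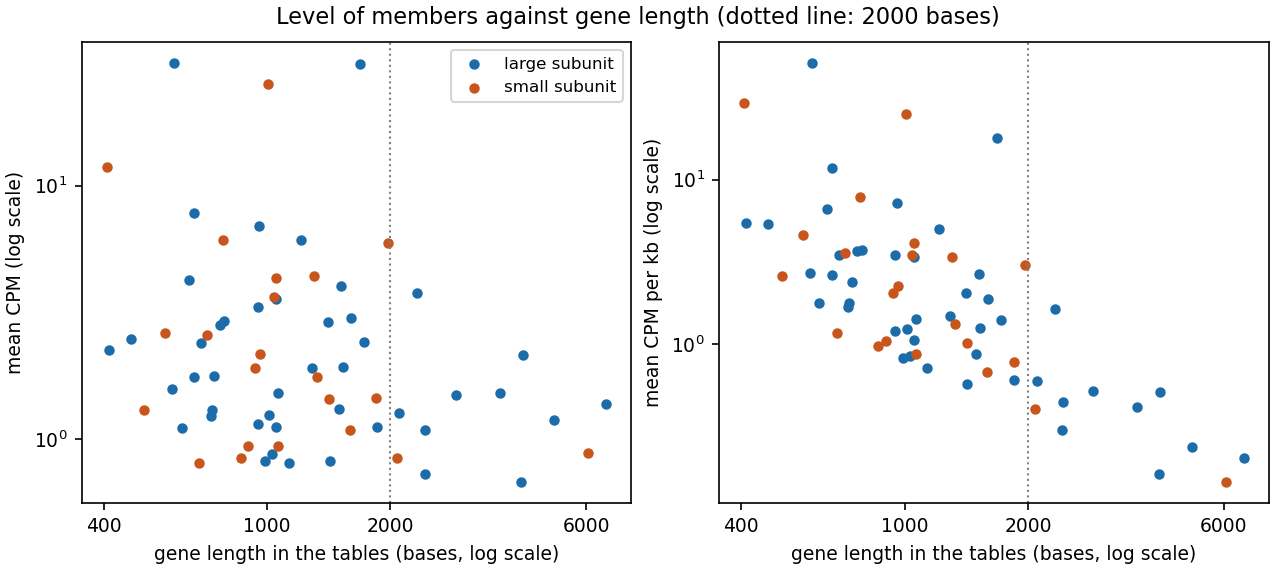
Mean level of the 67 members against the gene length deposited with the counts, in CPM on the left and CPM per kb on the right (all axes log scale, dotted line at 2000 bases). The 12 members to the right of the line hold all 10 of the lowest levels per kb.

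Below 1 CPM in at least 1 library were 22 members, on 11 to 50 counts each. The Mrpl genes among them were Mrpl1, Mrpl12, Mrpl16, Mrpl17, Mrpl19, Mrpl21, Mrpl37, Mrpl39, Mrpl40, Mrpl41, Mrpl44, Mrpl45, Mrpl46, Mrpl50 and Mrpl53, and the Mrps genes were Mrps2, Mrps12, Mrps18a, Mrps25, Mrps30, Mrps34 and Mrps35. Of the 67 members, 18 were under 1 CPM in replicate 1, 18 in replicate 2 and 2 in replicate 3. Those 2 were Mrpl1 at 0.804 CPM and Mrps12 at 0.996 CPM in replicate 3, and both were below the limit in the other libraries as well. Shares of all genes under 1 CPM in each library are not given here. With a mean under 2 CPM, 89.5% of members and 70.5% of all genes were highest in replicate 3. Mrps12 (uS12m), the counterpart of the bacterial decoding-centre protein, was at 0.741 and 0.675 CPM in replicates 1 and 2. Every member had at least 11 counts in each library.

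Grouped by place in the ribosome, a grouping from textbook knowledge that was made after the values were seen and that no test supports, levels were as follows. Of the stalk proteins, Mrpl10 was at 17.9 ± 3.54 CPM per kb (SD, n = 3), Mrpl12 (bL12m), which it carries, at 1.20 ± 0.377, and Mrpl11 (uL11m), at the stalk base, at 0.516 ± 0.147. Around the peptidyl transferase centre, where peptide bonds form, Mrpl2 (uL2m) was at 1.23 ± 0.206, Mrpl3 (uL3m) at 1.26 ± 0.382, Mrpl16 (uL16m) at 0.712 ± 0.359 and Mrpl27 (bL27m) at 1.68 ± 0.110 CPM per kb. In the central protuberance, the crest of the large subunit, Mrpl38 (mL38) was at 2.04 ± 0.342, Mrpl40 (mL40) at 1.06 ± 0.285, Mrpl46 (mL46) at 0.846 ± 0.278, Mrpl48 (mL48) at 3.38 ± 0.642 and Mrpl58 (mL62), a peptidyl-tRNA hydrolase built into the ribosome, at 1.78 ± 0.677 CPM per kb. Mrpl10 stood above Mrpl12 in every library, while Mrpl2 and Mrpl3 lay within each other's spread.

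Some symbols do not match the subunit found in the structure. Mrps18a (mL66) and Mrps30 (mL65) belong to the large subunit, and Mrps18a and Mrps18c (bS18m) are paralogs. Mrps18a was at 0.667, 0.794 and 1.07 CPM, or 0.977 ± 0.240 CPM per kb. Mrps18c was at 1.19, 1.23 and 1.49 CPM, or 2.60 ± 0.331 CPM per kb, above Mrps18a in each library on both scales. Mrps30 was at 1.33, 0.794 and 1.11 CPM. Another 5 proteins of the mitochondrial ribosome have names of their own. The highest was Aurkaip1, at 13.6, 16.6 and 18.3 CPM, or 13.4 ± 1.97 CPM per kb, a level near that of Mrpl20. Chchd1 was at 1.26, 1.19 and 1.26 CPM, or 2.08 ± 0.0691 CPM per kb, and the GTP-binding protein Dap3 at 2.00, 3.77 and 3.33 CPM, or 0.656 ± 0.199 CPM per kb. Gadd45gip1 (0.508 ± 0.0818 CPM per kb) and Ptcd3 (0.448 ± 0.200 CPM per kb) were under 1 CPM in at least 1 library. The other 4 thus lay well below Aurkaip1, within the range of the members.

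The genes of the small subunit stood slightly above those of the large one per gene length, by a margin that the exact test over 3 libraries could not call at the 0.05 level. The median level of Mrpl genes was 1.36, 1.43 and 1.87 CPM per kb in replicates 1, 2 and 3, and that of Mrps genes 1.68, 1.77 and 2.92 CPM per kb. The difference of the log2 medians, large minus small, was -0.30, -0.31 and -0.64, with a mean of -0.42 ± 0.20 (SD, n = 3). It was negative in 3 of 3 libraries, and the exact sign-flip permutation test over libraries, two-sided, gave p = 0.25, the smallest p that 3 libraries allow. On the scale of reads the medians were 1.48, 1.59 and 2.11 CPM for Mrpl genes and 1.56, 1.47 and 2.34 CPM for Mrps genes. The log2 differences were then -0.07, 0.11 and -0.15, with a mean of -0.04 ± 0.13 and no common sign (p = 0.75 by the same exact permutation test, which with 3 libraries could not have called a difference).

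The size of the difference per kb moved with the genes counted. With subunits assigned by structure (Mrps18a and Mrps30 as large, Mrps36 left out and the 5 proteins of other names added, 48 against 23 genes) it was -0.61, with members of a mean of 1 CPM or more it was -0.74, and in 2 alternatives added after seeing the data it was -0.22 (members under 2000 bases) and -0.17 (without the 5 highest members). The mean kept its sign in these settings, but without the 5 highest members the sign was no longer the same in all 3 libraries (SD 0.34, exact permutation p = 0.5). The difference in CPM moved as well, to -0.48 with members of a mean of 1 CPM or more, to -0.20 by structure and to -0.12 with means of log2 values in place of medians. Summed over genes, the large subunit took 142, 149 and 179 CPM and the small subunit 80.4, 79.8 and 89.1 CPM, for 45 and 22 genes.

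**Figure D3:**
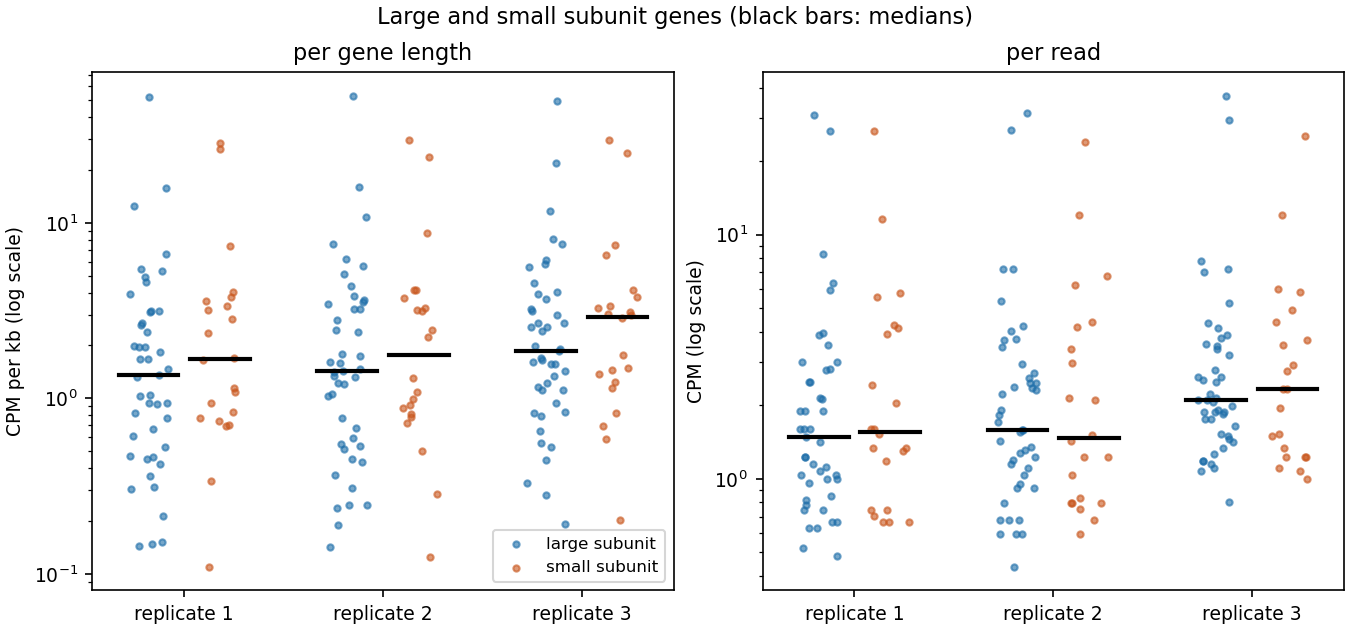
Level of each Mrpl gene (blue) and Mrps gene (orange) in each library, in CPM per kb on the left and CPM on the right (log scales), with black bars at the medians. Per kb the median of the Mrps genes is the higher one in all 3 libraries (1.68, 1.77 and 2.92 against 1.36, 1.43 and 1.87), while in CPM the order changes in replicate 2.

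Over both subunits, members with a bacterial counterpart had a higher median level per kb than those found only in mitochondria. Among Mrpl genes alone the medians were close. The 38 conserved members had median levels of 1.69, 1.70 and 2.69 CPM per kb and the 28 mitochondria-specific ones 0.934, 1.23 and 1.55 CPM per kb, with Mrps36 left out. The difference of log2 medians was 0.85, 0.47 and 0.79, with a mean of 0.71 ± 0.21 (SD, n = 3), a ratio of 1.63. It was positive in 3 of 3 libraries (exact sign-flip permutation test, two-sided, p = 0.25, the smallest possible). Conserved members reached 1 CPM in all 3 libraries in 30 of 38 cases (78.9%) and the others in 14 of 28 (50%), against 77.7% of all genes, so the conserved members were near the share over all genes and the others below it. The 5 highest members per kb were all conserved, and of the 10 highest only Mrpl52 was not. The medians lay further apart within the small subunit, where 12 conserved members had medians of 2.59, 2.81 and 3.07 CPM per kb and 9 others 0.772, 0.883 and 1.24. In the large subunit the medians were 1.39, 1.48 and 1.84 CPM per kb for 26 conserved members and 1.36, 1.43 and 1.87 for 19 others, and whether the subunits differ in this was not tested.

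Next to the proteins of the cytosolic ribosome, the members were low. The 71 cytosolic ribosomal protein genes (symbols starting with Rpl or Rps) had median levels of 10.2, 10.5 and 13.6 CPM per kb, and the log2 difference of the medians, mitochondrial minus cytosolic, was -2.80, -2.87 and -2.83 (mean -2.83 ± 0.04, SD, n = 3), a 7.12-fold difference. Nuclear genes of oxidative phosphorylation mostly encode proteins that join those made by the mitochondrial ribosome. The 69 such genes in the tables had medians of 7.73, 8.09 and 9.44 CPM per kb. The members were lower than these by a log2 difference of -2.40, -2.50 and -2.30 (mean -2.40 ± 0.10), or 5.28-fold. Both differences had the same sign in 3 of 3 libraries (exact sign-flip permutation test, two-sided, p = 0.25 each, the smallest possible). Counts of cytosolic ribosomal protein genes are uncertain, since they share sequence with many processed pseudogenes.

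**Figure D4:**
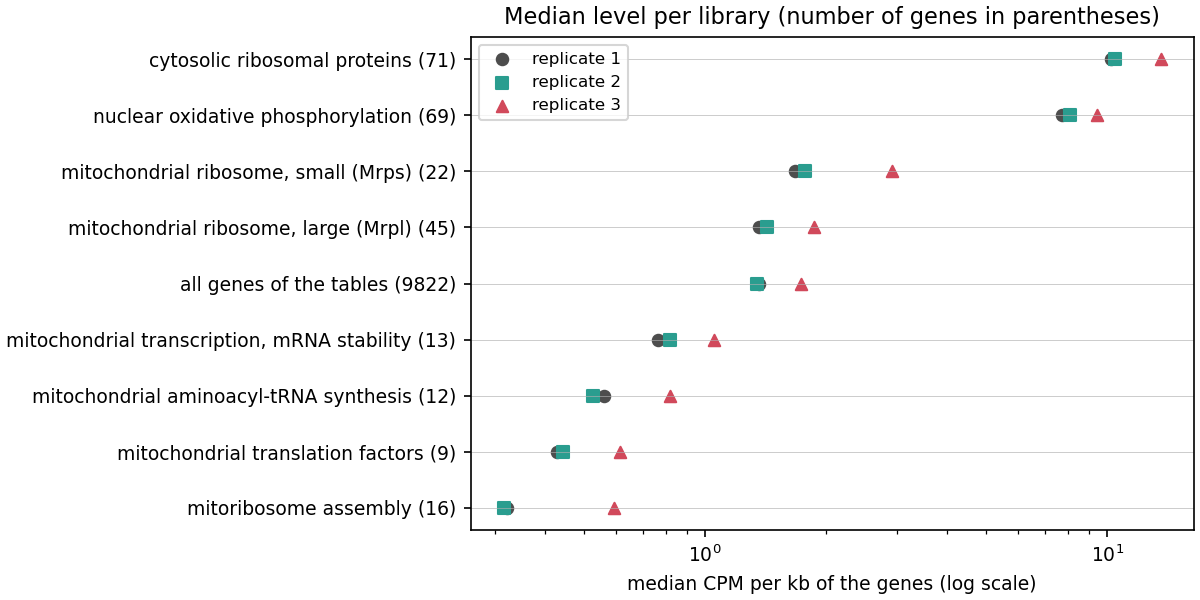
Median level of each gene set in CPM per kb (log scale) in replicates 1 (circles), 2 (squares) and 3 (triangles), with the number of genes in parentheses. Both subunits of the mitochondrial ribosome lie near all genes of the tables, below the cytosolic ribosomal proteins and oxidative phosphorylation genes and above the other lists of mitochondrial gene expression.

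Other genes of mitochondrial gene expression were mostly lower still. Of 82 listed, 55 were in the tables, and 26 of these (47.3%) reached 1 CPM in all 3 libraries, again beside 77.7% of all genes. These counts include the 5 ribosomal proteins of other names given above, of which 3 reached it. Among translation factors 3 of 9 did so. The ribosome recycling factor Mrrf was the highest, at 14.2, 15.1 and 14.9 CPM (6.54 ± 0.221 CPM per kb, SD, n = 3), ahead of the membrane insertase Oxa1l (1.83 ± 0.453), while the elongation factor Tufm (0.294 ± 0.106) and the initiation factor Mtif3 (0.111 ± 0.0462) were lowest. Mrrf was thus at the level of the higher members, and the factor that brings tRNA to the same ribosome was among the lowest genes of the group. Of the assembly and ribosomal RNA modification genes 4 of 16 passed, led by Rbfa, which matures the small subunit (5.15 ± 0.102 CPM per kb), and the assembly factor Mterf3 (2.72 ± 0.259), with Rcc1l (0.253 ± 0.0572) and the pseudouridine synthase Trub2 (0.238 ± 0.0643) at the end.

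Of the genes that charge mitochondrial tRNAs 9 of 12 passed (75%, near the 77.7% of all genes), and 1 of them stood far apart. Lars2, the mitochondrial leucyl-tRNA synthetase, had 2033, 2245 and 1758 CPM, or 518 ± 63.0 CPM per kb, which is above every member. The next, Kars, which serves cytosol and mitochondria, was at 4.21 ± 1.22 CPM per kb, and Tars2 was near the low end at 0.218 ± 0.0312 CPM per kb. How far reads of other genes enter the count of Lars2 was not tested, so its level is uncertain. Of the genes for mitochondrial transcription and mRNA stability 7 of 13 passed (53.8%, below the 77.7% of all genes), with Hsd17b10 (5.35 ± 1.12 CPM per kb) and the transcription factor Tfb2m (4.36 ± 0.275) highest and Pnpt1 (0.198 ± 0.0687) and the RNA polymerase Polrmt (0.170 ± 0.0589) lowest. The RNA partners of the members, mt-Rnr2 and mt-Rnr1, were at 96980 ± 6665 and 85845 ± 3357 CPM per kb, with 22.6%, 25.1% and 23.0% of all counts in replicates 1, 2 and 3. Unlike most members, both of these RNAs were highest in replicate 2.

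Replicate 3 held the highest level of most members, and this followed the level of the gene. By CPM, 7 members were highest in replicate 1, 10 in replicate 2 and 50 in replicate 3, which was also the highest library for 68.7% of all genes. Among the 55 members with a mean of 1 CPM or more, 38 were highest in replicate 3, a share of 69.1%, against 69.1% of the 8289 genes with that mean. With TMM scaling, which lowers replicate 3 by 0.13 on the log2 scale at the median, 30 of these 55 (54.5%) were highest in replicate 3, against 43.9% of all genes. The count of members was therefore close to the share over all genes before that scaling.

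The ratio of replicate 3 to the mean of replicates 1 and 2 was larger for low members. Its median was 1.64 for the 38 members under 2 CPM, 1.19 for the 20 members from 2 to under 5 CPM and 1.01 for the 9 members at 5 CPM or more, and for all genes in the same ranges it was 1.35, 1.30 and 1.09. Over all 67 members it was 1.37, against 1.20 for all genes. In the range of a mean of 1 to under 2 CPM, 22 of 26 members (84.6%) were highest in replicate 3, against 73.5% of all genes. At 5 CPM or more 3 of 9 members were highest there, all of them Mrpl genes (0 of 4 Mrps genes), against 63.4% of all genes at that level, so the members' share lay above that of all genes at the low levels and below it here. Across the 67 members, which share the libraries, Pearson's r between the log2 mean CPM and the log2 ratio was -0.55. Alongside, all 6 B cell markers, all 3 pan-leukocyte markers and 7 of the 10 platelet and megakaryocyte markers were highest in replicate 3. The share over all genes was 68.7%, and of the 7 red cell markers 0 were highest there. The T and natural killer cell markers in the tables (6 of 7) summed to 29.5, 32.1 and 45.4 CPM, the neutrophil markers (3 of 7) to 10.6, 16.2 and 19.6 CPM and the 6 monocyte markers, mostly Lyz2, to 1304, 1528 and 1381 CPM. Their part in the levels of the members was not tested.

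**Figure D5:**
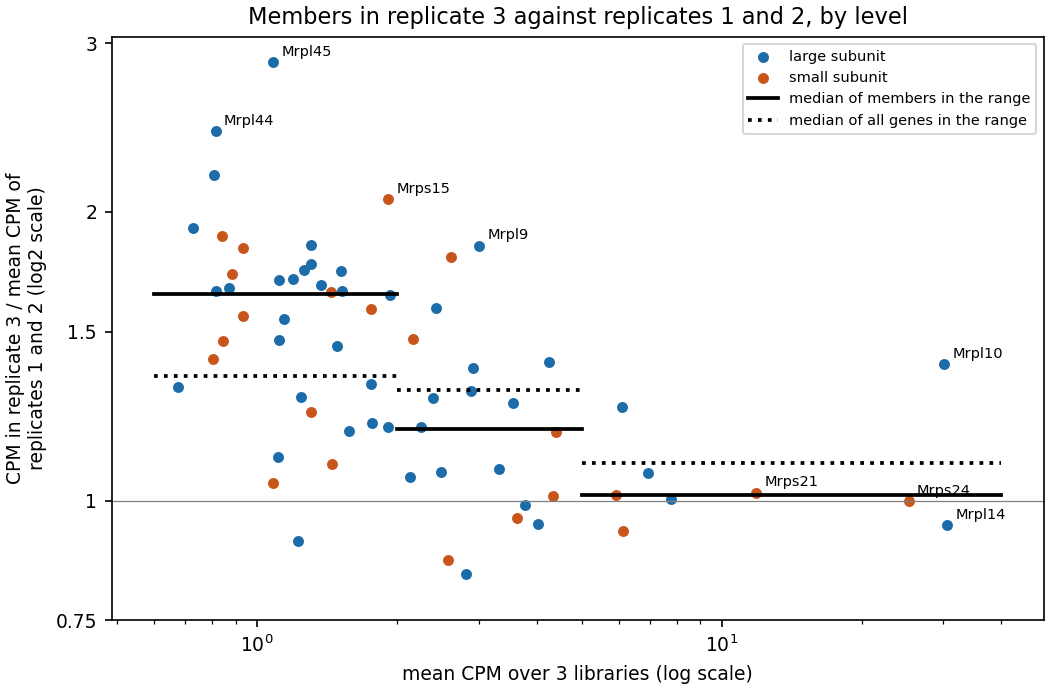
Ratio of the level in replicate 3 to the mean of replicates 1 and 2 (log2 scale) against the mean level in CPM (log scale) for the 67 members, Mrpl genes in blue and Mrps genes in orange. Solid bars are medians of the members and dotted bars medians of all genes in the ranges under 2, 2 to 5 and from 5 CPM on, and the members' medians fall from 1.64 to 1.19 and 1.01.

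No member passed the test of spread between libraries. In the edgeR quasi-likelihood fit, where each gene's spread was set against the trend over all genes, 0 of 55 members had an adjusted p under 0.05, against 0.229% of the 8289 genes tested. DESeq2 marked 0 of 55 members as dispersion outliers, against 0.591% of genes. At an unadjusted p under 0.05 edgeR had 1 member, against 4.29% of genes. This was Mrpl45 (mL45), which helps to hold the ribosome at the inner membrane, with 20, 15 and 50 counts, or 0.741, 0.595 and 1.91 CPM, in replicates 1, 2 and 3 (unadjusted p = 0.0367, Benjamini-Hochberg adjusted p = 0.982, edgeR). On simulated data the test found 0 of 50 genes changed 2-fold in 1 library. It found 14 of 50 changed 4-fold and 45 of 50 changed 8-fold. A change of a few fold in 1 library would thus mostly have been missed. The changed genes were drawn from all 8289 genes tested and were not matched to the level of the members. How many would be found at that level was not measured.

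After Mrpl45, whose highest level was 3.22 times its lowest, the widest ratios among members with a mean of 1 CPM or more were those of Mrpl37 (2.72), Mrps15 (2.37), Mrpl19 (2.22) and Mrpl28 (2.10). Mrpl37 (mL37) was at 1.41, 0.675 and 1.84 CPM, Mrps15 (uS15m) at 1.59, 1.23 and 2.91 CPM and Mrpl28 (bL28m) at 1.00, 1.43 and 2.11 CPM in replicates 1, 2 and 3. Of all 67 members 12 had a ratio of 2 or more, against 13.1% of all genes and 26.9% of genes with a mean under 2 CPM. Each of the 12 was highest in replicate 3, as were 87.2% of all genes with such a ratio. At the other end 35 members differed by less than 1.5 times between their highest and lowest library, Mrps33, Mrps21 and Mrpl14 among them.

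Many members lie close to another gene, which bears on how reads could be assigned, since the strand setting of the counting is not given in the sources used here. In GENCODE M21, 30 of the 67 shared exon bases with another gene. No share over all genes was computed for this count or for the count of pseudogene matches below, so neither sets the members apart. The widest overlaps were those of Mrpl53, Mrps25 and Mrps34. Mrpl53 had 88.0% of its exon bases inside Gm42688 on the same strand, and Mrps25 had 69.8% inside Nr2c2 on the opposite strand. Mrps34 had 63.4% inside Mapk8ip3 on the opposite strand and 37.0% inside Nme3 on the same strand, 77.8% in all. Levels of these 3 members are uncertain. Mrps24 (chr11:5703982-5707701, GRCm38) shared 226 bases on the same strand with Urgcp, which was at 36.4 CPM. Mrpl14 (chr17:45685722-45698495) shared 106 bases on the opposite strand with Tmem63b, a gene at 3.68 CPM. Mrpl44 and Mrpl48 overlapped on the opposite strand with genes at higher levels, Wdfy1 at 71.0 CPM and Rab6a at 122 CPM, against 0.815 and 3.56 CPM of their own. At least 100 stretches of 50 bases were identical to a pseudogene elsewhere for 9 members, among them Mrpl48, Mrps33 and Mrps36. None of those pseudogenes was in the tables (0 genes), and reads that map to several places could be lost or divided.

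Opposite-strand neighbours were common. The start of a gene on the other strand lay within 1000 bases of the start for 29 of 67 members (43.3%), against 1558 of the 8912 protein-coding genes of the tables that could be placed (17.5%). Mrpl46 and Mrps11 on chromosome 7 had GENCODE starts 412 bases apart and shared 173 exon bases on opposite strands. Here a gene of the large and a gene of the small subunit overlap at their starts. Mrps11 (uS11m) was at 3.93, 3.41 and 3.52 CPM and Mrpl46 at 0.630, 0.794 and 1.19 CPM in replicates 1, 2 and 3, so the levels of this pair differed in each library. Other members began beside Fau (Mrpl49, 59 bases apart), Psma2 (Mrpl32, 75 bases) and the mitochondrial helicase Twnk (Mrpl43, 779 bases).

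The promoter windows of the members are shown because the members work in 1 complex. RefSeq windows (GRCm38.p6, 250 bases before to 50 after the start) were found for 59 of the 67 members, 65 windows in all. They were searched on both strands for CCGGAAG, a core bound by ETS factors such as GABP, for GCGCATG, part of the site of NRF1, for AAGATGG, part of a common site of YY1, and for GGGCGGG, bound by SP1. These factors are known regulators of nuclear genes for mitochondria. A window with several matches counts once. The windows below are the 250 bases before the start, in the direction of the gene, with matches in capitals, for genes whose window holds at most 30 bases of exons of protein-coding genes. Mrps21 (chr3:95871515-95871764, minus strand), Mrps24 (chr11:5707702-5707951, minus strand) and Mrpl20 (chr4:155802628-155802877, plus strand) are among the 5 highest members per kb. Mrpl34 (chr8:71464676-71464925, plus strand) and Mrpl52 (chr14:54426659-54426908, plus strand) are among the 6 highest Mrpl genes, and Mrpl9 (chr3:94443086-94443335, plus strand) has the NRF1 letters on both strands.
Mrps21: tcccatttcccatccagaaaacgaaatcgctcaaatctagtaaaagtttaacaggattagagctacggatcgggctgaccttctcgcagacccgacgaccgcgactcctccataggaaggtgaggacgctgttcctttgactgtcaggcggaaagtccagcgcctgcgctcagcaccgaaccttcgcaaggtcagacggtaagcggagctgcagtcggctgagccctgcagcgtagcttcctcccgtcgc
Mrps24: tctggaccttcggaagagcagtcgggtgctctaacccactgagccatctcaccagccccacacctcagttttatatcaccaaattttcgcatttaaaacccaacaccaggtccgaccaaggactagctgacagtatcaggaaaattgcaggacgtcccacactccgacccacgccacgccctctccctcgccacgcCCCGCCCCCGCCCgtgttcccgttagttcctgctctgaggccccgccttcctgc
Mrpl20: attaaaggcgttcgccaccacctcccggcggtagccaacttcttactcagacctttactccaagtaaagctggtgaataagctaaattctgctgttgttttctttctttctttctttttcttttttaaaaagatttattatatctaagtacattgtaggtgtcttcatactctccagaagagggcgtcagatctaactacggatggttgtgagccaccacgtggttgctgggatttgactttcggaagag
Mrpl34: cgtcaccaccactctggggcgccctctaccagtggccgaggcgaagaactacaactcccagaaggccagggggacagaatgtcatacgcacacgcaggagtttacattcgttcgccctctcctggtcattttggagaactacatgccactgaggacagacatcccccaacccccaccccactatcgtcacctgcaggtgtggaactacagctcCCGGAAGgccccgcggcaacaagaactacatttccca
Mrpl52: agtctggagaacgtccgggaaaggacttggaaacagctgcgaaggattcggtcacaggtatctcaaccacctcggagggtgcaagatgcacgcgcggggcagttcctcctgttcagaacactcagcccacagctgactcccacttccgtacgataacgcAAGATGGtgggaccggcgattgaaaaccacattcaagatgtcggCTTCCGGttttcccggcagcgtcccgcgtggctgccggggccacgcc
Mrpl9: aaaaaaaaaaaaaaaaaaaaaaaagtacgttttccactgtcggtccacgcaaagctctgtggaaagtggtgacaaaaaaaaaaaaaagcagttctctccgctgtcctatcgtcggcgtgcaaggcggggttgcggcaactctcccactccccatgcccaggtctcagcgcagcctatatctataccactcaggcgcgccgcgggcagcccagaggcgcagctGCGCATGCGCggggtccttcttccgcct

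These windows differed in what they held. Mrps24 had a pair of overlapping matches to the SP1 letters on the opposite strand, at 54 and 48 bases before the start, whereas Mrps21 and Mrpl20 had 0 matches to any of the 4 motifs in these bases. The ETS letters lay 37 bases before the start of Mrpl34 and, on the opposite strand, 47 bases before that of Mrpl52, which also had the YY1 letters 91 bases before it. In Mrpl9 the NRF1 letters lay 28 bases before the start used for its window and, overlapping on the opposite strand, 25 bases before it. The RefSeq gene interval of Mrpl9 begins at position 94443154, inside this window. Part of the window, with both matches, therefore lies within the gene. A match is a description of letters, not of binding.

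Over whole windows the ETS letters were found in 24 of 65 member windows (36.9%), against 18.7% of windows of the protein-coding genes in the tables and 8.86% of all RefSeq windows. They were in 15 of 44 windows of Mrpl genes (34.1%) and 9 of 21 of Mrps genes (42.9%). The YY1 letters were in 12 member windows (18.5%, against 7.51% and 6.34%) and the NRF1 letters in 7 (10.8%, against 7.12% and 3.91%). Those 7 belonged to Mrpl9, Mrpl10, Mrpl17, Mrpl22, Mrpl32, Mrpl33 and Mrpl39, with 0 windows of Mrps genes among them. SP1 letters were in 26 windows (40%, against 46.8% and 25.6%). Among the plain promoter elements, CCAAT was in 26 (40%, against 37.1% and 37.4%) and TATAAA in 4 (6.15%, against 7.09% and 13.6%). Median GC content was 59% in member windows and 61% in those of protein-coding genes of the tables. Median levels of members with the letters and of the other members with a window are a description on the scale of reads with no test. They were 2.21 and 1.51 CPM for ETS, 2.57 and 1.47 for SP1, 2.49 and 1.64 for NRF1 and 2.22 and 1.76 for TATAAA. For YY1 they were close, at 1.76 and 1.77 CPM, and for CCAAT the order was reversed, at 1.49 and 2.32 CPM.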

How the data were processed

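RNA of purified mouse platelets was sequenced in 3 libraries of 1 group, grouped by the genotype label and numbered by the batch label. The deposited tables, 1 per library, hold, per the file headers, an Entrez number, a gene length and a raw count for each gene. Per the submitters' processing notes, CASAVA 1.8.2, featureCounts and Subread, edgeR 3.11.5 and the mouse build mm10 are named, without settings. What annotation, strand setting, handling of multi-mapping reads and filter on low genes were used is not given in the sources used here. Of the 9822 genes, 184 had no symbol and were kept in the totals.

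Counts were scaled to 1000000 by the plain total of each table (CPM) and divided by gene length in units of 1000 bases. Per library, medians of gene sets were compared as log2 differences, with an exact sign-flip permutation test over the 3 libraries, two-sided. For the spread, an intercept-only model with TMM factors was fitted in edgeR 4.0.16 (limma 3.58.1, R 4.3.3) to the 8289 genes whose mean reached 1 CPM. Each gene's quasi-likelihood dispersion was compared with the trend value in an upper-tail F test, and p-values were adjusted by Benjamini-Hochberg over all of these genes. DESeq2 1.42.0 gave size factors and dispersion outliers as alternatives. The spread test was tested on simulated data: 50 of 50 genes changed 16-fold in 1 library were found, with 0 calls among 8089 unchanged genes. Overlaps came from GENCODE M21, promoter windows from RefSeq (GRCm38.p6). The NRF1 and YY1 letters are shortened forms, set after longer forms had been searched. Python 3.11.15, NumPy 2.4.6, pandas 2.3.3, SciPy 1.17.1 and matplotlib 3.10.9 were used.

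The members and lists were chosen with earlier results of these data known. By a fixed rule, values were given for the 6 highest and 4 lowest members per kb of each subunit, members under 1 CPM in any library (as names and ranges), the 5 widest ratios between libraries among members with a mean of 1 CPM or more, the Mrps18 paralogs, members whose symbol and structure disagree, ribosomal proteins of other names, the mitochondrial ribosomal RNAs, and the 2 highest and 2 lowest genes of each list of mitochondrial translation genes. A gene of these lists that the rule names is not reported here. Genes named by site on the ribosome or for their neighbours were chosen after their values were seen. Alternatives were other detection minimums and scalings, filters, summaries, subunit assignment and leaving out each library.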

Additional observations from a re-analysis of the deposited data

How the results depend on the processing

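Of 67 comparisons with an alternative setting, 59 kept direction and side of the threshold or stayed within the spread or 1.5 times the count. At a minimum of 5 CPM, 9 members and 8 other mitochondrial translation genes were detected in place of 45 and 26. At 0.5 CPM 65 members and 39 of the other genes were detected. Shares of all genes detected at these minimums are not given here. By mean level, 9 of the 67 members and 4351 of the 9822 genes reached 5 CPM. With totals that leave out the 10 highest genes, the summed level of the members was 421.8 CPM in place of 239.5, by construction. With TMM scaling 16 members and with DESeq2 size factors 18 members were highest in replicate 2, in place of 10. By plain CPM 1552 of the 9822 genes were highest there, and shares over all genes under the 2 scalings are not given here. The difference of subunits in log2 median CPM, -0.04, changed sign to 0.014 without the 5 highest members, to 0.015 with members under 2000 bases (both added after seeing the data) and to 0.021 without replicate 3. Under the other settings it stayed negative, down to -0.48 with members of a mean of 1 CPM or more. Leaving out each replicate it ran from -0.11 to 0.021, and the difference per kb from -0.48 to -0.30. The number of members past the edgeR threshold was 0 under every alternative run, with 0 to 3 members at an unadjusted p under 0.05. No paired analysis was possible because there is 1 group. With 40 to 55 counts for the median member of a library, counting error limits the precision of single members.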
